A study of Rattus norvegicus with 9 samples.

Results

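Homer1 and 3 ania transcripts, placed at its locus here by gene order, are described. They are 4 of the 35581 names that a rat expression array gives its features, and 5 of its 41012 probes read them. Taken were all probes that the array annotation names Homer1 or gives the GenBank records AF030090, AF050660 or AF050659, which it describes as the 3' untranslated regions of ania-5, ania-8 and ania-7. All 5 stood well above background on all 9 arrays and passed the filter on dim probes, as did 30321 of all probes (73.9%). They were chosen by their differences between these same groups of arrays. Their levels, differences and standard errors are therefore a description and carry no test. The cells were dissociated cortical neurons of prenatal rat pups, grown in Neurobasal medium with either B27 or NS21 and used after 11 to 15 days in culture. All cultures had 48 h of tetrodotoxin (TTX), a sodium channel blocker under which neurons do not fire. One group, called TTX, stayed in the toxin, and the groups called W15 and W45 were collected 15 and 45 min after it had been removed by 3 washes with medium. Each group had 3 arrays, no group was free of TTX exposure, and the labels name no animal, strain or culture behind a replicate.

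Homer1 encodes a scaffold protein of the postsynaptic density. Its EVH1 domain binds proline-rich motifs in metabotropic glutamate receptors, inositol trisphosphate receptors and Shank proteins. The long forms, Homer1b and Homer1c, carry a coiled coil through which they join into larger assemblies and link these partners. The short form Homer1a lacks the coiled coil, competes with the long forms for the same partners and is the product of an immediate early transcript that ends early, within the gene. The name ania stands for activity and neurotransmitter-induced early gene, a set of transcripts first collected from rat neurons after stimulation.

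The members read different stretches of RNA, so the start of each 60-base probe is shown to let them be told apart. The first 30 bases are given in lower case, 5' to 3', with no motif marked.
ania-5: acttggcaatgtgacactttcttactgagg
ania-8: agcttccattcgtgttttaatggttaacac
ania-7: gtgaagggaatccatctaagagcagttatg
Homer1, U92079 probe: aacagaagctcattgacaaactaaagtgac
Homer1, NM_031707 probe: gcctgtgatattgaagagggttcttttcat
The longest run of bases that any pair of the full probes shared was 7. The array lists the U92079 probe for U92079 and AB003726, the original records of the short form Homer1a. It lists the NM_031707 probe for the reference transcript NM_031707 together with AB017140, AF093267 and AF093268, which are records of the long forms. Whether each probe read its named form alone was not tested.

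In the rn3 build the 3 ania probes lay on the plus strand of chromosome 2. The ania-5 probe covered 23505728 to 23505787, the ania-8 probe 23508972 to 23509031, and the ania-7 probe 23542349 to 23542408. Between ania-5 and ania-8 lay 3184 bp, and between ania-8 and ania-7 lay 33317 bp. Both Homer1 probes carry no position in the files, so the placement at the locus rests on gene order. The nearest probes of named genes were that of Tent2 (listed as Papd4), which ended 161665 bp before ania-5, and that of Bhmt, which began 301651 bp after ania-7. In the GRCr8 assembly, used here for gene order alone, Homer1 on the plus strand and Jmy on the minus strand are the genes listed between Tent2 and Bhmt. The ania probes thus had the strand of Homer1. The annotation calls their records 3' untranslated regions of the ania transcripts, but the files do not say where they lie relative to the exons and introns of Homer1.

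Signals were log2 processed intensities minus each array's 75th percentile, so that 0 is the 75th percentile of that array and negative levels are dimmer. Of all probes, 72.4 to 77.9% stood well above background on an array. All 9 neuronal markers (Map2, Rbfox3, Tubb3, Snap25, Syn1, Syp, Nefl, Slc17a7 and Gad1) were above background on every array, as the label of the cells asks. So were 4 of 5 astrocyte markers, 4 of 4 oligodendrocyte markers and 3 of 5 vascular markers, against 0 of 5 microglial markers, of which Cx3cr1 and Aif1 were above background on 0 arrays. The summed linear signal of the neuronal markers, in units of the 75th percentile, ranged over 108 to 133 in TTX, 114 to 140 in W15 and 102 to 131 in W45. That of the astrocyte markers ranged over 63.7 to 76.0, 65.6 to 72.8 and 55.6 to 79.7 in the same order of groups. In such bulk cultures fewer responding cells and less RNA per cell cannot be told apart. Arrays lay on 3 slides: slide 1 held 1 array of each group (replicate 1 of TTX and of W45, replicate 3 of W15), slide 2 held the other TTX arrays, and slide 3 held the other W15 and W45 arrays. Comparisons with TTX are thus partly confounded with slide. With slide 1 alone, each difference below rests on 1 array a group.

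Among the 5 probes, ania-5 had the widest difference at 15 min, ania-8 was also higher by then, and ania-7 was higher at 45 min but not at 15 min. Both Homer1 probes stayed within a narrow range in all groups. At 15 min the arrays of 2 of the 5 probes, ania-5 and ania-8, lay wholly above the TTX arrays, as did those of 9.47% of all probes tested. At 45 min this held for 4 of the 5 (ania-5, ania-8, ania-7 and the NM_031707 probe) and for 8.03% of all probes. Between 45 and 15 min it held for ania-7 alone among the 5, and for 4.02% of all probes.

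**Figure D1:**
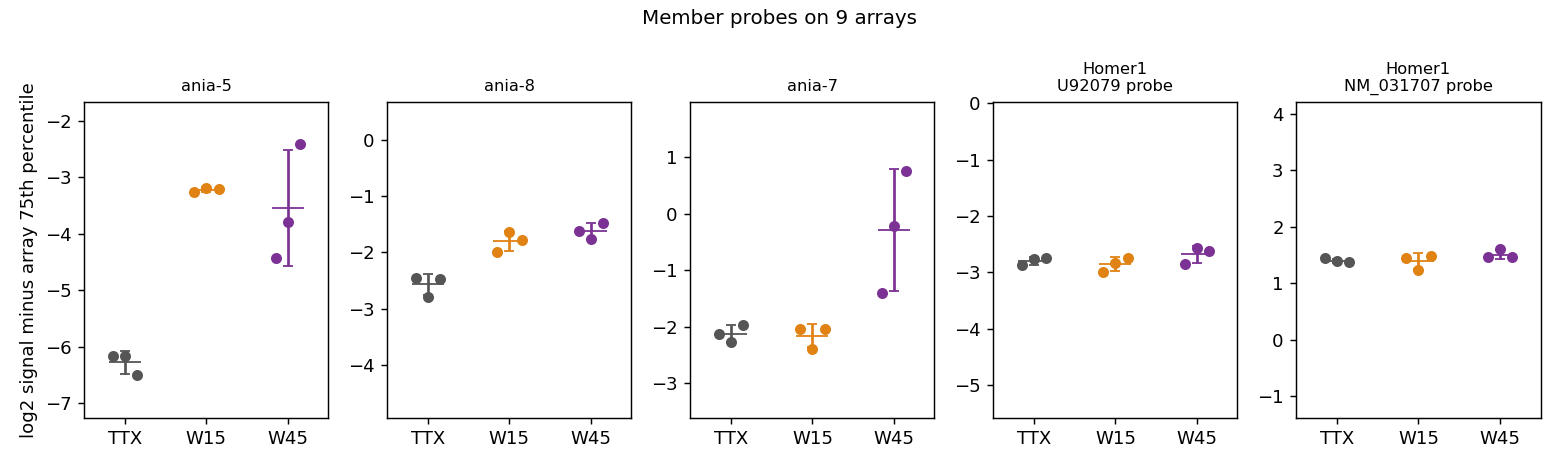
Log2 signal minus the array's 75th percentile (vertical axis) of the 5 probes in TTX, W15 and W45, with a point per array and the mean and SD of each group; every panel spans the same number of log2 units. The W15 points of ania-5 and ania-8 lie above all TTX points, those of ania-7 lie among them, and both Homer1 probes stay nearly level.

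The ania-5 probe was faint in the silenced cultures and clearly brighter after washout. Its log2 level was -6.16, -6.18 and -6.51 on the TTX arrays, -3.27, -3.18 and -3.20 on the W15 arrays, and -4.43, -3.80 and -2.41 on the W45 arrays. The W15 arrays lay close together, the W45 arrays lay far apart on both sides of them, and all 6 arrays after washout stood above all TTX arrays. In order of mean level the groups ran TTX, W45, W15, and W45 and W15 overlapped.

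The ania-5 difference from TTX was 3.06 ± 0.41 at 15 min (SE, 3 arrays per group), which is 8.37-fold, with a 95% interval of 2.14 to 3.99. At 45 min it was 2.74 ± 0.41, or 6.66-fold, with an interval of 1.81 to 3.66. W45 minus W15 was -0.33, with an interval of -1.26 to 0.60. These SEs use a spread shared by the groups, though the SD was 0.20 in TTX, 0.04 in W15 and 1.03 in W45. They are thus wide for W15 minus TTX and narrow for the comparisons with W45. The unscaled intensity of ania-5 was 172 to 208 in W15 and 85.7 to 318 in W45, against 25.1 to 27.7 in TTX. In TTX the probe stood only 0.65 to 1.17 log2 units above the dimmest signal counted as well above background on the same array. Its folds are therefore sensitive to what is added or subtracted at this level. With a model-based (normexp) correction, which adds an offset of 50, the differences from TTX became 1.95 at 15 min and 1.63 at 45 min. That offset exceeds the TTX intensities and by itself narrows the differences, so its part and that of the background estimate were not told apart. On slide 1 the ania-5 differences were 2.96 at 15 min and 1.73 at 45 min, and W45 minus W15 was -1.22 there and 0.12 on slide 3.

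The ania-8 probe had a smaller difference that was even across arrays. Its log2 level was -2.45, -2.78 and -2.47 on the TTX arrays, -1.99, -1.63 and -1.78 on the W15 arrays, and -1.61, -1.77 and -1.48 on the W45 arrays. Every array after washout was above every TTX array, while W15 and W45 overlapped. The order of the means was TTX, W15, W45.

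W15 minus TTX of ania-8 was 0.76 ± 0.15 (SE, 3 arrays per group), which is 1.70-fold, with an interval of 0.41 to 1.11. W45 minus TTX was 0.95 ± 0.15, or 1.93-fold, with an interval of 0.60 to 1.29. The step between the later and the earlier time was 0.18, with an interval of -0.17 to 0.53. On slide 1 the differences from TTX were 0.66 at 15 min and 0.83 at 45 min. The ania-8 and ania-5 probes are the closest pair on the chromosome. Their log2 differences from TTX at 15 min were 0.76 for ania-8 and 3.06 for ania-5, from unlike mean TTX levels of -2.57 and -6.28. In mean unscaled intensity, ania-8 went from 352 in TTX to 512 in W15 and 556 in W45. The ania-5 probe went from 26.1 to 191 and 172 in the same order. The gap in log2 units is thus not a like gap in added signal.

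The ania-7 probe, the farthest downstream on the plus strand, differed from the other ania probes in its timing. Its log2 level was -2.13, -2.28 and -1.98 on the TTX arrays and -2.05, -2.40 and -2.05 on the W15 arrays. On the W45 arrays it was -1.40, -0.22 and 0.77. The TTX and W15 arrays overlapped, and the lowest W45 array was still above the highest of the other 6. The W45 arrays also lay far from each other: their SD was 1.08, against 0.15 in TTX and 0.20 in W15.

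W15 minus TTX of ania-7 was -0.04 ± 0.43 (SE, 3 arrays per group), with an interval of -1.01 to 0.94 that leaves room for a change in either direction. The SE uses a spread shared by the groups, though the SD was 0.15 in TTX, 0.20 in W15 and 1.08 in W45. It is thus wide for W15 minus TTX, through the W45 arrays, and narrow for the comparisons with W45. W45 minus TTX was 1.84 ± 0.43, which is 3.59-fold, with an interval of 0.87 to 2.82. W45 minus W15 was 1.88 ± 0.43, or 3.68-fold. Slide 1 held 1 W45 array, the lowest of the 3, so slide and sample cannot be told apart in the values by slide. W45 minus TTX was 0.73 on slide 1, and W45 minus W15 was 0.65 on slide 1 and 2.50 on slide 3. With slide as a fixed block, W45 minus TTX was 1.35 and W15 minus TTX was -0.53.

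**Figure D2:**
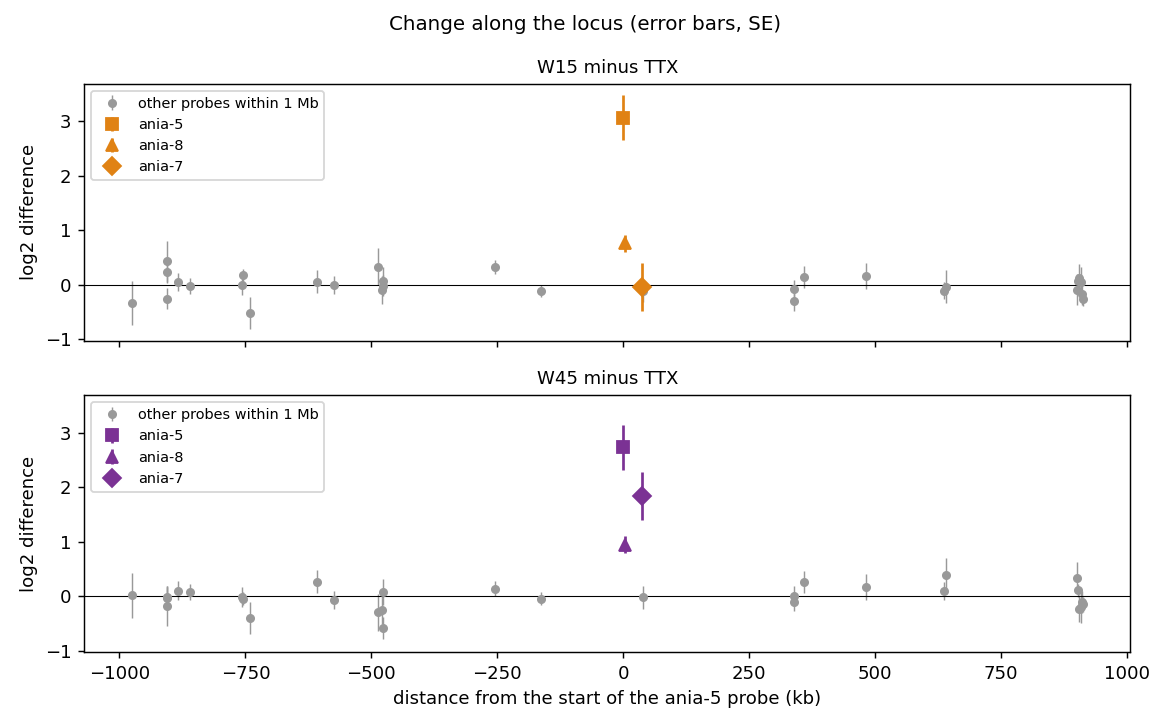
Log2 difference from TTX (vertical axis) of each tested probe within 1 Mb of the ania probes, by distance in kb from the start of the ania-5 probe, at 15 min (top) and 45 min (bottom); bars are SE. The ania-5 and ania-8 probes stand above the other probes in both panels and ania-7 only at 45 min, while the grey probes lie between -0.58 and 0.43.

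The U92079 probe, listed for Homer1a, stayed nearly level. Its log2 level was -2.87, -2.76 and -2.74 on the TTX arrays, -2.99, -2.83 and -2.75 on the W15 arrays, and -2.85, -2.57 and -2.61 on the W45 arrays. All 3 groups overlapped, and their means ran W15, TTX, W45. W15 minus TTX was -0.06 ± 0.13 (SE, 3 arrays per group), with an interval of -0.36 to 0.23, and W45 minus TTX was 0.12 ± 0.13, with an interval of -0.18 to 0.41. W45 minus W15 was 0.18, with an interval of -0.12 to 0.48. These intervals hold no change as well as small ones. With normexp the differences from TTX were 0.22 at 15 min and 0.27 at 45 min, where the medians of all probes moved to 0.20 and 0.12. When arrays were not scaled they were -0.26 and -0.14, with medians of all probes at -0.16 and -0.22.

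The NM_031707 probe, listed for the long forms, is printed in 10 spots on each array, and the SD between its spots lay between 0.031 and 0.160 log2 units. Its log2 level was 1.44, 1.39 and 1.37 on the TTX arrays, 1.45, 1.23 and 1.48 on the W15 arrays, and 1.46, 1.60 and 1.46 on the W45 arrays. TTX and W15 overlapped, and the W45 arrays lay above the TTX arrays by less than the spread of the W15 arrays. W15 minus TTX was -0.01 ± 0.12 (SE, 3 arrays per group), with an interval of -0.29 to 0.26. W45 minus TTX was 0.11 ± 0.12, with an interval of -0.17 to 0.38, and it turned to -0.15 when arrays were not scaled, a setting that put the median of all probes at -0.22. W45 minus W15 was 0.12 ± 0.12 on all arrays and -0.02 on slide 1.

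**Figure D3:**
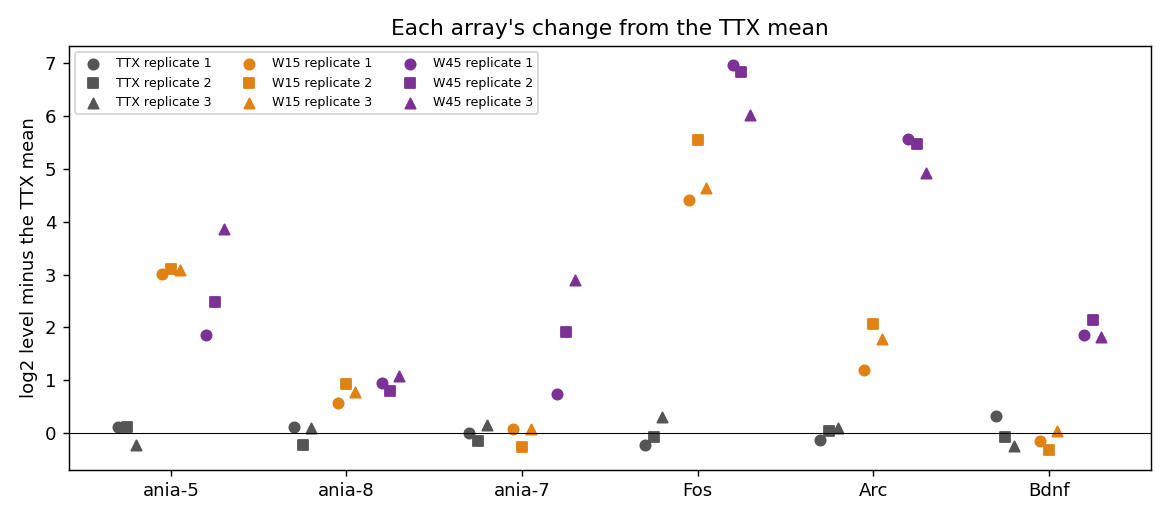
Each array's log2 level minus the TTX mean (vertical axis) for ania-5, ania-8, ania-7, Fos, Arc and Bdnf, with colours for the groups and symbols for the replicate numbers. In W45 the ania-5 and ania-7 probes are highest on replicate 3 and lowest on replicate 1, whereas Fos and Arc are lowest on replicate 3.

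The spread within the W45 group was shared by ania-5 and ania-7. Relative to the TTX mean, ania-5 was 1.85, 2.48 and 3.87 log2 units higher on W45 replicates 1, 2 and 3, and ania-7 was 0.73, 1.91 and 2.89 higher. Replicate 1, on slide 1, was the lowest of the W45 arrays for both, and replicate 3 the highest. The ania-8 probe did not share this spread, at 0.95, 0.80 and 1.09 above the TTX mean on the same arrays. The order of the W45 replicates was not particular to ania-5 and ania-7. Both Bhmt probes near the locus, named below, also ran from lowest on replicate 1 to highest on replicate 3, and other probes had other orders. The share of all probes with this order was not counted.

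Arc, whose protein acts at synapses, was 5.57, 5.46 and 4.93 log2 units above its TTX mean on W45 replicates 1, 2 and 3. Fos, part of the AP-1 transcription factor, was 6.96, 6.83 and 6.02 above its own. Both were therefore lowest on the array where ania-5 and ania-7 were highest. On the time scale of these genes, Fos was higher by 4.86 at 15 min (limma adjusted p = 0.00170) and by 6.61 at 45 min (limma adjusted p = 2.12e-05). Bdnf, a neurotrophin gene, had -0.15 at 15 min (limma adjusted p = 0.988) and rose by 1.94 at 45 min (limma adjusted p = 0.00201). Arc had 1.68 at 15 min (limma adjusted p = 0.200) and rose by 5.32 at 45 min (limma adjusted p = 1.00e-05). Fos, Arc and Bdnf were chosen with earlier results of these data known, and their p-values take no account of that. The comparisons of W15 and W45 with TTX share their TTX arrays.

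The genes whose levels ran most like each member over the 9 arrays differed between the members. The measure was Pearson's r over the arrays against 12277 genes with a symbol, and the points are not independent, since arrays of a group and of a slide resemble each other. As the highest of so many over 9 arrays, these r are large by selection, also for the nearly level U92079 probe (up to 0.971). For ania-8 the 5 nearest were Fos (r = 0.943), the glycosyltransferase gene Rfng (0.943), the neuronal transcription factor gene Npas4 (0.929), Fbn2 (0.918) and the AP-1 gene Junb (0.911). Of these, Fos, Npas4 and Junb are immediate early genes. For ania-5 they were Rfng (0.936), Map3k11 (0.935), Pcnx3 (0.932), Fbln1 (0.930) and Nudt8 (0.917). Their differences from TTX at 15 min were no more than 0.29, where ania-5 had 3.06, since r takes no account of size.

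For ania-7 the nearest were the glutamyl-prolyl-tRNA synthetase gene Eprs1 (r = 0.975), Nags (0.968), Sec23ip (0.967), Uqcrfs1 (0.965) and the calcium channel subunit gene Cacna2d1 (0.963). At 45 min they differed from TTX by 0.19 to 0.85. For the U92079 probe they were Pafah1b3 (0.971), Cox7a2l (0.961), Aftph (0.959), Abat (0.956) and Pom121 (0.949). For the NM_031707 probe they were the phosphatase subunit gene Ppp2r2b (0.956), Lurap1 (0.944), Impdh2 (0.938), Fxyd1 (0.936) and Ndufa10l1 (0.928). The 5 lists shared 1 gene, Rfng, which was named for both ania-5 and ania-8.

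Of the other probes within 1 Mb of the ania probes, 41 in number, 30 were tested and 0 were called by limma at an adjusted p under 0.05 in any of the 3 comparisons, with 1 at an unadjusted p under 0.05 in each. Over all probes tested, limma called 0.0198% at 15 min and 0.198% at 45 min against TTX, and 0.129% between 45 and 15 min. An unadjusted p under 0.05 was reached by 3.36%, 6.37% and 6.61% of all probes in the same order of comparisons. The median difference of these 30 was -0.01 at 15 min and -0.01 at 45 min, beside 0.04 and 0.04 over all probes. They ranged from -0.52 to 0.43 at 15 min and from -0.58 to 0.40 at 45 min. The nearest named genes had small values: Tent2, a poly(A) polymerase gene, had -0.11 at 15 min and -0.04 at 45 min. The Bhmt probes, for an enzyme of methionine synthesis, had -0.30 and -0.07 at 15 min and 0.01 and -0.10 at 45 min.

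A probe without gene annotation, A_44_P316422, began 2016 bp past the end of the ania-7 probe on the same strand, and it is named here after its values were seen. Its log2 level was -2.36, -2.30 and -2.93 in W15 and -2.12, -2.48 and -2.72 in W45, against -2.38, -2.45 and -2.44 in TTX. The groups overlapped. Its difference from TTX was -0.11 ± 0.20 at 15 min and -0.02 ± 0.20 at 45 min (SE, 3 arrays per group), where the ania-7 probe had -0.04 and 1.84.

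Among the other ania features on the array, at other loci, 2 of 5 were tested and 0 were called in any comparison by limma, with 0 at an unadjusted p under 0.05. Over all probes the unadjusted shares were 3.36%, 6.37% and 6.61%, as above, so that 0 of 2 says little. The ania-4 probe, given the symbol of the kinase gene Dclk1 here through RefSeq, had a difference from TTX of -0.02 ± 0.17 at 15 min and 0.06 ± 0.17 at 45 min (SE, 3 arrays per group). The ania-6a probe had 0.18 ± 0.25 and -0.23 ± 0.25. Its W15 levels of 3.07, 3.16 and 3.05 lay wholly above the 2.91, 2.81 and 3.03 of the TTX arrays, as did those of 9.47% of all probes. Its W45 levels of 2.15, 2.59 and 3.33 lay on both sides of the TTX arrays. Like ania-5, ania-7 and the Bhmt probes, ania-6a was lowest on W45 replicate 1 and highest on W45 replicate 3. The ania-9, ania-10 and ania-12 probes stood above background on 0 arrays.

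The genes of Homer relatives and binding partners were read by 51 probes for 32 genes, of which 49 probes were tested. Limma called 0 of the 49 in each comparison. At an unadjusted p under 0.05 there were 0 at 15 min, 4 at 45 min and 3 between the times, beside 3.36%, 6.37% and 6.61% of all probes, so the partner probes lay near the share of the whole array. Their median difference from TTX was 0.08 at 15 min and 0.14 at 45 min, beside 0.04 and 0.04 over all probes, and they ranged from -0.35 to 0.41 and from -0.47 to 0.60. The smallest adjusted p was 0.988 at 15 min and 0.364 at 45 min.

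Homer2 and Homer3 encode the related scaffold proteins. Homer2 had 0.11, 0.50 and 0.00 in W15 and 0.35, 0.11 and -0.13 in W45, against 0.04, 0.07 and 0.15 in TTX, and its groups overlapped. Its difference from TTX was 0.12 ± 0.17 at 15 min and 0.02 ± 0.17 at 45 min (SE, 3 arrays per group). Homer3 had a difference of 0.15 ± 0.16 at 15 min and 0.20 ± 0.16 at 45 min, neither called by limma.

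The metabotropic glutamate receptor gene Grm5 had -0.01 at 15 min and 0.01 at 45 min against TTX. The scaffold genes Shank1, Shank2 and Shank3, whose proteins join Homer to the rest of the postsynaptic density, differed from TTX by -0.08 to 0.18 at 15 min and by 0.05 to 0.26 at 45 min.

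The inositol trisphosphate receptor gene Itpr1 had -0.03 and 0.33 on its probes at 15 min and 0.08 and -0.04 at 45 min. The 4 probes with an unadjusted p under 0.05 at 45 min are given because of their values and outside the rule for naming. They were 2 of the 3 probes of Itpr2, another receptor gene of that family, and those of the cation channel genes Trpc5 and Trpc1. The Itpr2 probes had 0.16, 0.41 and 0.19 at 15 min and 0.56, 0.36 and 0.52 at 45 min, with a smallest limma adjusted p of 0.364. Trpc5 had 0.08 at 15 min and 0.52 at 45 min (limma adjusted p = 0.634), and Trpc1 had -0.35 and -0.47 (limma adjusted p = 0.673 at 45 min). Agap2, which encodes a GTPase that Homer links to metabotropic receptors, had -0.06 and 0.09 at 15 min and 0.06 and -0.14 at 45 min. Frmpd4, the gene of a scaffold protein also called Preso, had -0.11 and 0.28 at 15 min and 0.15 and 0.30 at 45 min. None of these was called by limma.

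**Figure D4:**
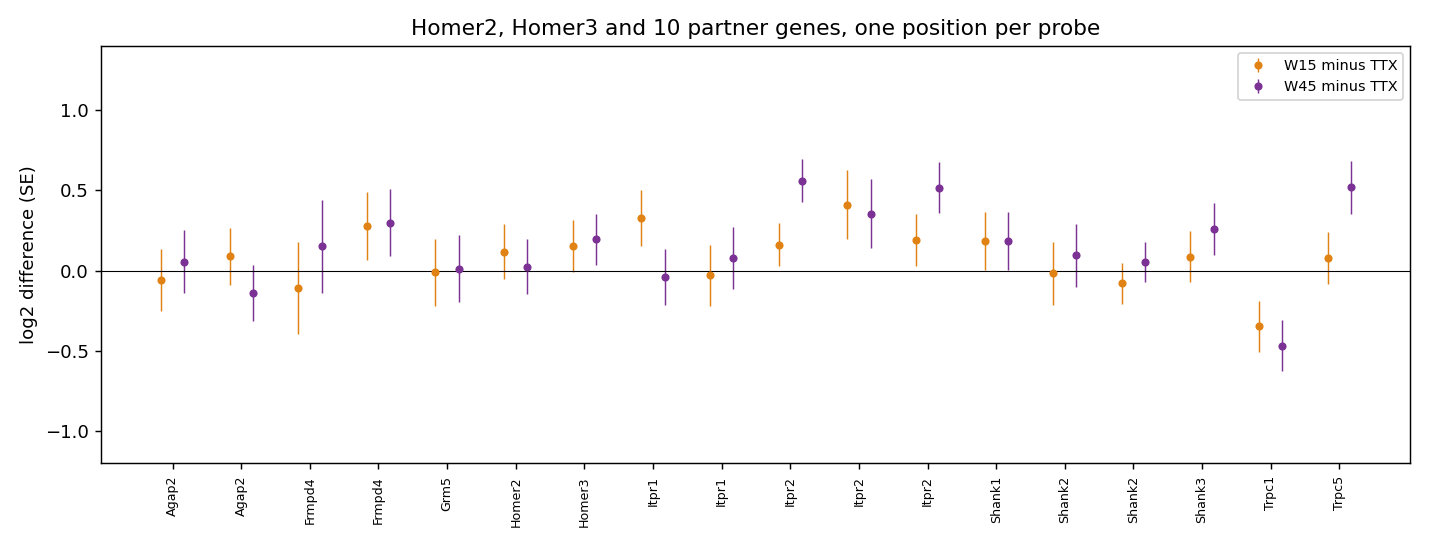
Log2 difference from TTX (vertical axis) of the 18 tested probes of Homer2, Homer3 and 10 partner genes named in the text, with W15 in orange and W45 in purple; bars are SE. The points lie between -0.47 and 0.56 and none was called by limma.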

How the data were processed

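Messenger RNA was measured on 9 one-colour Agilent arrays of design 014879, 3 per group. Per the file headers, the deposited values are Cy3 spot intensities from Feature Extraction 9.5.3.1, named as version 9.5 in the submitters' processing notes. They are background-subtracted and not scaled between arrays, with probe positions in rn3. The deposited value table held the same intensities (largest difference 0).

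From these, 1639 control spots and 49 to 111 outlier spots per array were left out, repeat spots averaged, and log2 signals scaled to each array's 75th percentile. Probes well above background on all 3 arrays of a group (30321) were fitted with limma 3.58.1 in R 4.3.3 (data.table, version 1.17.8), all groups in 1 model without covariates, with Benjamini-Hochberg adjustment over all probes. The fit was tested on simulated data. The probe was the unit, since probes of 1 gene may read different transcripts. It called 6 probes at 15 min (6 higher), 60 at 45 min (53 higher, 7 lower) against TTX, and 39 between the times (36 higher, 3 lower). P-values measure only the spread between these samples, whose origin in separate cultures is not stated. Precision is limited by how many arrays there are. All SEs and intervals use a spread shared by the 3 groups, also where the groups differ in it.

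The members, lists and rules were chosen with earlier results of these data known. Every member probe and other ania feature is named. Of the partners, Homer2, Homer3, Grm5, Shank1, Shank2, Shank3, Itpr1, Agap2, Frmpd4 and any called gene are named, other genes of the rule are not reported here, and Itpr2, Trpc5 and Trpc1 were added after their values were seen. Arc, Fos and Bdnf are named for timing, and the 5 genes most like each member by r. Symbols of 20097 probes came from RefSeq (GRCr8). Slides were read from array identifiers. Alternatives changed the background correction, scaling, filter, slide, replicate block, arrays fitted, probe choice and variance model, and left out each array. Figures used matplotlib 3.10.9 with pandas 2.3.3 in Python 3.11.15.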

Additional observations from a re-analysis of the deposited data

How the results depend on the processing

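The differences of ania-5, ania-8 and ania-7 from TTX at 45 min, and those of ania-5 and ania-8 at 15 min, were above 0 in every alternative run. They ranged from 1.95 to 3.12 for ania-5 and 0.56 to 0.86 for ania-8 at 15 min, and from 1.63 to 3.18 for ania-5, 0.69 to 1.02 for ania-8 and 0.73 to 2.40 for ania-7 at 45 min. With normexp, where the median of all probes was 0.20 at 15 min and 0.12 at 45 min, ania-5 had 1.95 and 1.63 and the U92079 probe 0.22 and 0.27. W45 minus W15 with normexp was 0.042 for the U92079 probe and 0.0085 for ania-8, beside a median of -0.19. Without scaling, where the medians were -0.16 and -0.22, ania-8 had 0.56 and 0.69, the U92079 probe -0.26 and -0.14, and the NM_031707 probe -0.21 and -0.15. On slide 1, with 1 array a group, the U92079 probe had 0.13 at 15 min, ania-5 had 1.73 at 45 min and ania-7 had 0.73 at 45 min. W45 minus W15 on slide 1 was -1.22 for ania-5, 0.65 for ania-7, -0.10 for the U92079 probe and -0.024 for the NM_031707 probe, and on slide 3 it was 0.32 for the U92079 probe. Leaving out 1 array moved W45 minus W15 of ania-5 between -0.90 and 0.11, with the positive value without W45 replicate 1 and the lowest without W45 replicate 3. W45 minus TTX of ania-7 lay between 1.32 and 2.40 in the same fits.

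Of all probes, those called at 15 min numbered 2 with normexp, 0 with slide as a block and 10 with the compared groups alone. At 45 min against TTX they numbered 26 with normexp, 34 without scaling, 37 without the filter, 25 with slide as a block and 33 with the compared groups alone. Between 45 and 15 min they numbered 16 with normexp, 22 without the filter and 21 with the compared groups alone. Leaving out 1 array gave 2 to 8, 31 to 203 and 20 to 232 calls in the 3 comparisons, with 203 and 232 both without W45 replicate 1, and 93 and 74 without W45 replicate 3. The lists of partners, other ania features and probes near the locus had 0 calls in every alternative run. The causes of these shifts were not tested.

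Replicate numbers are shared between groups, but the labels do not say that they pair cultures. Deviations from the group mean correlated above 0.1 in 7 of 9 pairs of the same number, and 9 of 9 arrays correlated best with an array of their own number, which is a hint from the data and not from the design. With the replicate block the member differences had the same values, such as 3.06 for ania-5 at 15 min, and 5, 51 and 30 probes were called.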
